A study of Gossypium hirsutum with 42 samples.

Results

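The leaf transcriptomes of 2 upland cotton (Gossypium hirsutum) F1 hybrids that share a mother were compared: H, the high hybrid (SJ48 x Z98-15), and M, the medium hybrid (SJ48 x 851-2). The comparison took the 6 leaf libraries of H and M, 3 of each, out of 21 leaf libraries and 42 libraries in all. The study sequenced root and leaf of 7 genotypes: the shared mother SJ48 (A), the father of H, Z98-15 (B), the father of M, 851-2 (C), a further inbred, DT-8 (D), and the 3 hybrids H, M and L, the low hybrid (SJ48 x DT-8), ranked by their advantage in yield over their parents. All plants were seedlings in Hoagland nutrient solution, without any further treatment, and the first true leaves were taken when fully expanded, together with the root of the same plant. Each value is the FPKM of a gene, fragments scaled to the length of the transcript and to all mapped fragments, and differences are H minus M on log2(FPKM + 1), so that a positive value means a higher level in H. The files hold no read counts, so the read depth behind each value is not known from them.

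An F1 hybrid carries 1 set of chromosomes from each parent, and a gene whose copies are read as in the parents is expected near the mean of both, the mid-parent level. By the crosses stated, H and M received the same maternal set, so they should differ in genotype only by the paternal set. Genes present in M leaf and in neither of its parents, some of them expressed by B alone among the inbreds, are given below. Upland cotton is an allotetraploid with an A and a D subgenome, so most genes have another copy, the homoeologue, usually on the chromosome of the same number in the other subgenome. Reads from near-identical copies can be split wrongly between them, which makes the level of a single copy uncertain while the sum is less so.

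The library labels were examined on genes that only 1 father expressed among the inbreds. The limits were at least 2 FPKM in its 3 leaf libraries and less than 0.2 in the other inbreds, which may still carry the gene. Of 17 such genes of B, 12 were present in H (at least 0.5 FPKM in its 3 libraries), 4 in M and 0 in L. Of 13 such genes of C, 0 were present in H, 7 in M and 0 in L. The leaf marker list, with Rubisco small chain and light-harvesting proteins, summed to 13038 to 16693 FPKM in H leaf and 13831 to 17039 in M leaf, against 147 to 344 in the root of both. The root marker list summed to 67.9 to 92.9 FPKM in the 6 leaf libraries and to 302.7 to 418 in root, with 13 of its 67 genes at 0 in all 6 leaf libraries. M library 1 stood apart from the other leaf libraries: its FPKM summed to 462952 with 15.6% in the 10 highest genes, against 5.16 to 6.96% in the other 5 libraries of H and M. Its excess lay mostly in 8 loci, 7 of them without a gene name, which held 13.6% of M library 1, 3.74% of M library 2, 1.01% of M library 3 and 0.716 to 1.17% of the H libraries. M libraries also had fewer genes at 1 FPKM or more (42550 to 45052) than H libraries (45141 to 46492). The part of these differences in the results below was not tested, and calls lost when 1 library was left out are given with the value without it.

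Of 54835 genes tested, 614 (1.12%) differed between H and M leaf at a limma adjusted p under 0.05 and a difference of more than 1 on the log2 scale, which is 2-fold. 342 genes (0.624%) were higher in H and 272 (0.496%) were higher in M. The median difference was 1.24 among genes higher in H and -1.47 among genes higher in M, and 38 and 48 genes passed 2 on the log2 scale. Without the limit on size, 2264 genes passed the adjusted p. In 335 of the genes higher in H and 261 of those higher in M the 3 libraries of one hybrid did not overlap those of the other. Over all genes tested, libraries did not overlap with H higher in 13.5% and with M higher in 5.62%, and the median gene lay 0.07 higher in H, with a positive difference in 61.7% of genes. After quantile normalization, which gives every library the same distribution of values, 593 genes passed and the balance turned to 257 higher in H and 336 higher in M. 264 of the 614 calls were kept whichever of the 6 libraries was left out. The number of calls fell to 416 without M library 1 and rose to 1057 without M library 3, of which 690 were higher in M.

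**Figure D1:**
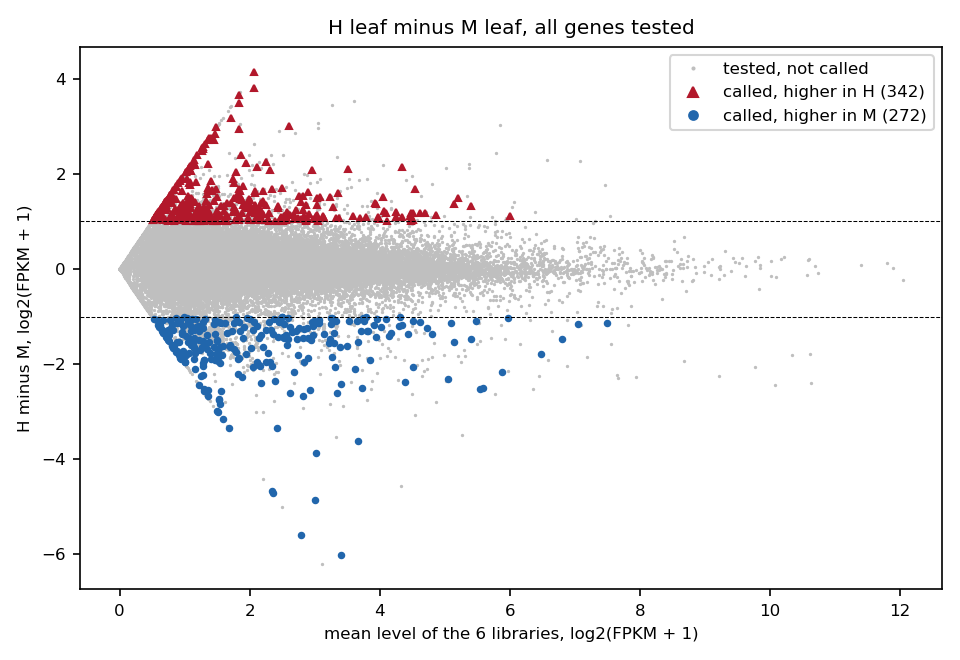
Each point is 1 of the 54835 genes tested, with the mean level of the 6 libraries on log2(FPKM + 1) on the x axis and H minus M on the y axis. The 342 genes called higher in H (red triangles) and 272 called higher in M (blue circles) lie beyond the dashed lines at 1 and -1.

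The largest annotated difference in favour of H was in a terpene pathway gene. Gh_D11G3404, a terpenoid cyclase of chromosome D11, was at 24.1, 12 and 10.7 FPKM in the 3 H libraries and at 0.0923, 0.138 and 0.124 in the 3 M libraries. The lowest H library thus lay far above every M library, and the difference was 3.81 ± 0.20 (SE; limma adjusted p = 3.21e-09). Terpenoid cyclases and terpene synthases make the carbon skeletons of terpenoids, which in cotton leaves include defence compounds. Gh_D11G3403, annotated as terpene synthase 21 and next to it in gene number, read 5.16, 2.67 and 2.66 FPKM in H and 0.0633, 0.0454 and 0.0327 in M. It was higher in H by 2.06 ± 0.17 (adjusted p = 1.35e-06), again without overlap. Both genes were near 0 in the mother A and in C and were expressed in B (15.1 ± 2.23 FPKM for Gh_D11G3404 and 3.77 ± 0.796 for Gh_D11G3403, SD, n = 3) and in D. In L leaf Gh_D11G3404 stood at 13.3 ± 1.08 FPKM. A further terpenoid cyclase, Gh_D09G0075, was at 59.0, 52.9 and 55.9 FPKM in H and 19.1, 26.6 and 18.7 in M, a difference of 1.36 ± 0.13 (adjusted p = 1.32e-05). Here M, not H, departed from the other genotypes, whose means ran from 38.2 to 59.0 FPKM. The terpene synthase 21 gene Gh_D05G3504 was higher in H by 1.17 (adjusted p = 0.033), and this call was lost without H library 1 or 2 or M library 1 or 3 (adjusted p 0.0744 to 0.13).

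Several other leading genes higher in H had the father B as the highest inbred. Gh_D11G3245;Gh_D11G3246, a pentatricopeptide repeat protein of the family that processes organelle RNA, was at 7.41, 4.59 and 4.48 FPKM in H against 0.991, 1.37 and 0.685 in M (1.67 ± 0.16, adjusted p = 9.66e-06). Gh_A10G1959, a Kin17-type DNA- and RNA-binding protein, read 4.28, 1.31 and 2.32 FPKM in H and 0.175, 0.0572 and 0.0705 in M (1.64 ± 0.22, adjusted p = 0.000388). In neither gene did the libraries overlap, and B was at 12 ± 1.73 and 5.61 ± 0.524 FPKM. GATA transcription factor 11, Gh_D08G2116, of a family that binds GATA motifs in promoters, was at 8.79, 14.1 and 14.0 FPKM in H and 2.73, 3.47 and 3.65 in M, a difference of 1.61 ± 0.14 (adjusted p = 1.95e-06). B was also highest for this gene (14.0 ± 0.837 FPKM) and C lowest (0.321 ± 0.0418). UDP-glucosyl transferase 88A1, Gh_A07G2018, which attaches glucose to small molecules, had 5.97, 5.83 and 7.38 FPKM in H and 1.44, 1.37 and 1.47 in M (1.6 ± 0.09, adjusted p = 4.12e-09). Its 3 H libraries lay close together near the level of B (6.99 ± 0.471 FPKM), and M lay with A, C, D and L, whose means were between 1.08 and 1.81.

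For other genes higher in H the fathers B and C did not differ by the test. The RING/U-box gene Gh_D12G2086, of a family of ubiquitin ligases, was at 4.18, 3.01 and 4.21 FPKM in H and at 0, 0 and 0.0451 in M (2.23 ± 0.18, adjusted p = 1.6e-06). It was expressed in B, C, D and L (means of 2.54 to 2.85 FPKM), so that M and the mother A (0.117 ± 0.163) stood out as low. Phosphoglycerate mutase family gene Gh_D12G2282, named for a glycolytic enzyme, read 3.60, 4.68 and 3.17 FPKM in H and 0.595, 0.428 and 0.5 in M (1.66 ± 0.31, adjusted p = 0.00575). None of the 4 inbreds exceeded a mean of 0.591 FPKM for it. Glycosyl hydrolase 9C2, Gh_Sca121931G01, an endoglucanase of the cell wall, was at 7.38, 3.98 and 6.47 FPKM in H and listed at 0 in the 3 M libraries (adjusted p = 0.000423). An exact 0 in this table can be a failed estimate. Photosystem I subunit G (Gh_A04G0007) is listed at 0 in M library 3 and C library 1, beside 657 and 619 FPKM in M and 493 and 471 in C. It is also at 0 in every leaf library of H and of its parents A and B. No fold difference is therefore given for genes at 0 in one hybrid. Phosphoenolpyruvate carboxylase kinase 1, Gh_D10G1543, which activates a carbon-fixing enzyme, read 1.11, 2.07 and 1.79 FPKM in H with 0 in M (adjusted p = 0.00078). RHOMBOID-like protein 14, Gh_A08G2021, an intramembrane protease, read 2.71, 2.63 and 1.66 FPKM in H with 0 in M (adjusted p = 0.0141), and its call was lost without H library 1 or 2 or M library 1 (adjusted p 0.0511 to 0.0536).

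A further group of leading calls in H lay close to the limit of the adjusted p and was lost with most or any of the 6 libraries left out. The histone gene Gh_A08G2114 was at 14.1, 13.3 and 8.48 FPKM in H and listed at 0 in M (adjusted p = 0.0355), and the adjusted p was 0.0649 to 0.102 with any 1 of the 6 libraries left out. In the leaf of the other genotypes it was above 0 only in A library 3 (9.16 FPKM) and L library 2 (23.2 FPKM). Ribonuclease 1, Gh_D06G1912, an enzyme linked in Arabidopsis to phosphate recovery, had 23.5, 13.4 and 13.5 FPKM in H and 0.486, 2.69 and 0.840 in M (3 ± 0.80, adjusted p = 0.0441), and held only without M library 2 (otherwise 0.0883 to 0.16). The Rossmann-fold gene Gh_A09G1283 was higher in H by 1.69 (adjusted p = 0.0497), lost without any 1 of the 6 libraries (0.054 to 0.148). WRKY DNA-binding protein 3, Gh_D07G0318, of a family of stress-related transcription factors, read 6.56, 5.22 and 4.39 FPKM in H and 0.843, 1.87 and 0.602 in M (1.63 ± 0.41, adjusted p = 0.032). This call too held only without M library 2 (otherwise 0.0673 to 0.11). The libraries of H and M did not overlap in any of these 4 genes.

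**Figure D2:**
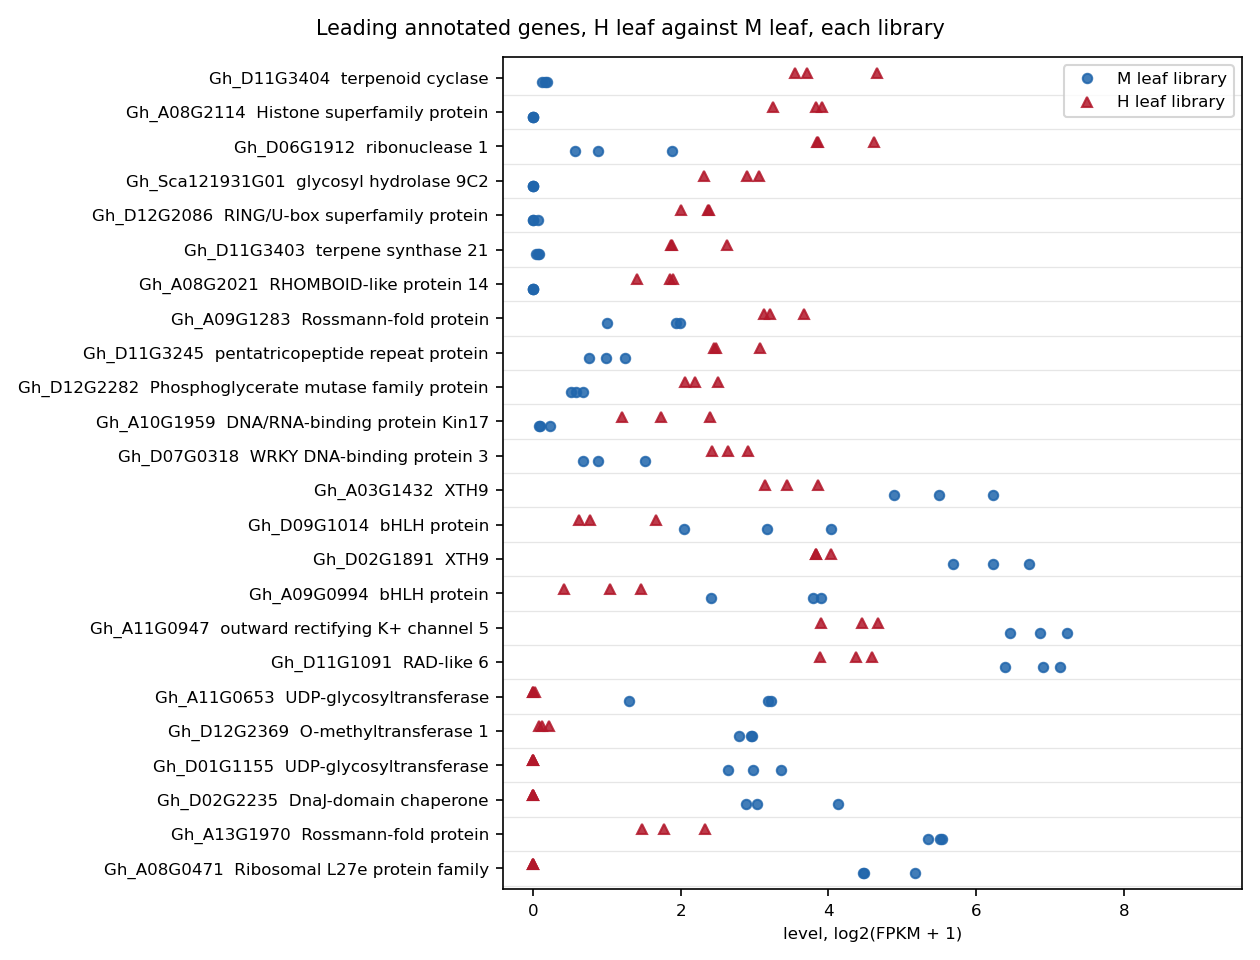
The level of the 12 annotated genes with the largest differences in each direction is shown for each H leaf library (red triangles) and M leaf library (blue circles) on log2(FPKM + 1). H and M libraries do not overlap in any gene shown, which was a condition of the choice, and 3 genes in each direction are listed at 0 in every library of the other hybrid.

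Among genes higher in M, a Rossmann-fold NAD(P)-binding gene, Gh_A13G1970, an oxidoreductase by its annotation, showed the largest difference with both hybrids above 0. It was at 1.77, 2.41 and 4.05 FPKM in H and 39.8, 44.5 and 45.5 in M, a difference of -3.61 ± 0.18 (limma adjusted p = 1.76e-09). The M libraries stood above all other genotypes, whose means were 2.33 to 4.87 FPKM. RAD-like 6, Gh_D11G1091, a small MYB-type protein, was at 19.7, 13.7 and 23.1 FPKM in H and 119, 82.9 and 139.8 in M (-2.53 ± 0.36, adjusted p = 0.000729). Gh_A11G0947, annotated as calcium-activated outward rectifying K+ channel 5, followed it almost value for value, at 20.9, 13.9 and 24.6 FPKM in H and 115, 87.1 and 149 in M (-2.51 ± 0.46, adjusted p = 0.00451). Both had C as the highest inbred, at 64.0 ± 15.8 and 64.3 ± 16.1 FPKM. Whether these loci share reads is not known from the file. O-methyltransferase 1, Gh_D12G2369, an enzyme of phenolic methylation, read 0.162, 0.0619 and 0.0838 FPKM in H and 6.82, 5.89 and 6.73 in M (-2.76 ± 0.13, adjusted p = 1.29e-09). Its mean level was 0.108 FPKM or less in A, B and C, and it was 13.0 ± 2.39 in D and 6.09 ± 1.21 in L.

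Genes that were listed at 0 in H included a UDP-glycosyltransferase, a ribosomal protein and a chaperone. Gh_D01G1155, a UDP-glycosyltransferase, was at 6.89, 5.24 and 9.24 FPKM in the M libraries and listed at 0 in H and in every leaf library of the other 5 genotypes (adjusted p = 3.21e-09). The ribosomal L27e gene Gh_A08G0471 read 21.4, 35.0 and 21.2 FPKM in M with 0 in H (adjusted p = 0.000837). The DnaJ-domain chaperone Gh_D02G2235 read 7.21, 16.6 and 6.4 FPKM in M with 0 in H (adjusted p = 0.00888). A second UDP-glycosyltransferase, Gh_A11G0653, had 0.0224, 0 and 0 FPKM in H and 8.12, 1.45 and 8.36 in M (-2.56 ± 0.45, adjusted p = 0.00343). M library 2 was the lowest M library for that gene and still above every H library. The list of cytosolic and plastid ribosomal proteins, whose words do not match this L27e gene, had 0 of 751 tested members called by limma (median 0.01; 49 at an unadjusted p under 0.05, and 1 called after quantile normalization). The list summed to 16359 FPKM in M library 2, against 11189 and 11002 in M libraries 1 and 3 and 11506 to 13657 in H.

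4 bHLH transcription factors from 2 pairs of homoeologous copies were higher in M. Gh_A13G0307 was at 0.523, 0.176 and 0.613 FPKM in H and 4.12, 2.65 and 7.30 in M (-1.92 ± 0.31, limma adjusted p = 0.00174). Its D copy Gh_D13G0346 differed by -1.39 (adjusted p = 0.0126), and this was lost without M library 1 (-1.25, adjusted p = 0.0703). Gh_A09G0994 and Gh_D09G1014 differed by -2.40 (adjusted p = 0.0398) and -2.06 (adjusted p = 0.0302). Their M libraries ran from 4.31 to 14.0 and from 3.14 to 15.4 FPKM, above all H libraries, which were at or below 2.16. The first held only without M library 2 (otherwise 0.0586 to 0.148), and the second was lost without H library 2 or 3 or M library 1 or 3 (0.0947 to 0.116).

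Photosynthesis genes were split, with a few members higher in H and most not passing the test. Photosystem I subunit O, Gh_A07G1013, a membrane subunit that helps to dock light-harvesting complexes, was at 24.7, 24.5 and 31.8 FPKM in H and 5.72, 12.7 and 9.19 in M. The difference was 1.51 ± 0.23 (limma adjusted p = 0.0011), and M lay below the other 6 genotypes, whose means were 17.1 to 24.7 FPKM apart from H. A chlorophyll a/b-binding family gene, Gh_A12G1940, read 2.54, 3.18 and 3.76 FPKM in H and 0.886, 0.964 and 0.774 in M (1.14 ± 0.14, adjusted p = 0.000133). For that gene the inbreds were far higher, at 10.8 to 20.6 FPKM. The light-harvesting complex I protein gene Gh_A12G1617 was higher in H by 1.39 (adjusted p = 0.0494), and this was lost without H library 2 or 3 or M library 1 or 2 (0.0772 to 0.207). Gh_Sca006566G03, annotated as a photosystem II reaction centre protein, was higher in M (-1.54, adjusted p = 0.0139) at levels of 1.05 to 5.54 FPKM in M and 0.761, 0 and 0 in H, lost without H library 2 or 3 or M library 1 (0.0599 to 0.0702). The list of light-harvesting proteins had 2 of 52 members higher in H and 0 higher in M (median 0.16), the photosystem list 1 and 1 of 87 (median 0.05), and the Calvin cycle list 0 of 39 (median -0.005). The share called over all genes tested was 1.12%. The Rubisco small chain Gh_D11G1671, the highest Calvin cycle gene, was at 3147, 4388 and 4342 FPKM in H and 4859, 3651 and 5386 in M, with overlapping libraries (-0.22, adjusted p = 0.498).

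Among genes of chlorophyll synthesis and of plastid gene expression and vitamin E, those described next were called higher in H; apart from the chlorophyll synthesis list they were picked after their values were seen. Glutamyl-tRNA reductase, Gh_D05G3825, which makes the first committed step of chlorophyll synthesis, was at 15.8, 29.5 and 31.9 FPKM in H and 8.87, 13.3 and 9.30 in M (1.18 ± 0.28, limma adjusted p = 0.0239). Protochlorophyllide oxidoreductase A, Gh_A13G1234, the light-dependent step of the same pathway, was at 9.09, 8.64 and 10.4 FPKM in H and 2.90, 5.17 and 4.6 in M (1.01 ± 0.20, adjusted p = 0.00879). Neither gene had overlapping libraries. The reductase call was lost without H library 2 or 3 or M library 1 or 3 (0.0591 to 0.111), and the oxidoreductase fell under the 2-fold limit without H library 3 (0.94) or M library 1 (0.82, adjusted p = 0.0556). These were the 2 called of 29 tested chlorophyll synthesis genes (6.90% against 1.12% of all genes, median 0.19), and 0 were called without M library 1. Differences were positive in 24 of the 29 (82.8%), against 61.7% of all genes tested. Sigma factor E, the plastid RNA polymerase factor that directs transcription of photosystem II genes in Arabidopsis, was called in both copies. Gh_D12G2691 was at 5.88, 8.51 and 8.69 FPKM in H and 1.99, 2.47 and 2.92 in M (1.32 ± 0.16, adjusted p = 0.000104), and Gh_A12G2280 differed by 1.07 (adjusted p = 0.00486). The A copy fell under the limit without H library 2 (0.95) or M library 2 (0.84). Tocopherol cyclase, Gh_D07G0223, which makes vitamin E in the chloroplast, read 17.3, 18.7 and 10.3 FPKM in H and 4.21, 4.73 and 4.75 in M (1.52 ± 0.31, adjusted p = 0.00884). Proton gradient regulation 3, Gh_A06G0542, a plastid RNA-binding protein, differed by 1.07 (adjusted p = 0.00597), which was 0.94 without H library 3, 0.97 without M library 1 and 0.98 without M library 3.

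In the other direction, a pheophorbide a oxygenase family gene, Gh_A05G3718, named for chlorophyll breakdown, was at 25.6, 23.9 and 17.5 FPKM in H and 58.5, 38.8 and 55.3 in M (-1.15, adjusted p = 0.0338). Its libraries did not overlap, yet the call held only without M library 2 (otherwise 0.054 to 0.137). Thylakoid rhodanese-like, Gh_A12G1001, a thylakoid membrane protein, read 8.78, 6.94 and 8.41 FPKM in H and 21.5, 13.0 and 33.8 in M (-1.30 ± 0.26, adjusted p = 0.00819), and fell to -0.98 without M library 3. All other genotypes had mean levels of 6.33 to 13.9 FPKM, so the mean of M was above theirs.

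Morning clock genes were the list with the highest median. LHY and the REVEILLE genes are MYB-type transcription factors of the plant circadian clock that peak near dawn, and CONSTANS-like genes act in light signalling and flowering. The circadian genes had been picked in the study from these same libraries, so they are no independent evidence of a direction. All 8 tested LHY and REVEILLE genes were higher in H by value (median 0.59), none passed the 2-fold limit, and 6 of the 8 passed the adjusted p. Gh_A09G1504 was at 6.98, 8.70 and 8.47 FPKM in H and 4.18, 2.97 and 4.42 in M (0.91 ± 0.12, limma adjusted p = 0.000392), without overlap. Gh_A11G0926 read 2.81, 2.41 and 1.59 FPKM in H and 1.16, 1.2 and 0.813 in M (0.66 ± 0.12, adjusted p = 0.0043). Gh_D09G1515, Gh_D12G1184, Gh_A12G1061 and Gh_D11G1068 differed by 0.78, 0.67, 0.52 and 0.48 (adjusted p 0.00133 to 0.0199), Gh_D12G1185 by 0.33 (adjusted p = 0.063) and Gh_A12G1062 by 0.27 (adjusted p = 0.207). For Gh_A11G0926 the difference between the hybrids was small beside that to the inbreds. It was at 65.7 ± 2.49 FPKM in A, 30.5 ± 3.24 in B, 29.0 ± 1.02 in C and 1.52 ± 0.164 in L. This did not hold for Gh_A09G1504 and Gh_D09G1515, whose D libraries were at 14.3, 15.2 and 14.0 FPKM and at 10.6, 10.1 and 10.6 FPKM. The hour of harvest of each genotype is not given in the sources used here, and its part in levels of clock genes was not tested.

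The lists of CONSTANS-like and CIA2 genes, pseudo-response regulators and evening clock genes had no called member, while the wider KEGG circadian pathway is given below. Of 8 CONSTANS-like, CIA2 and related genes 0 were called by limma (2 at an unadjusted p under 0.05), with a median of -0.21, and libraries overlapped in all 8, for example in Gh_D11G1518 (2.77, 2.37 and 2.22 FPKM in H and 2.61, 5.29 and 4.10 in M, adjusted p = 0.107). Pseudo-response regulators had 0 of 14 called (5 at an unadjusted p under 0.05, median 0.02), and the highest of them, Gh_A09G1502, was at 63.1 to 67.9 FPKM in H and 64.3 to 74.0 in M. The evening clock list had 0 of 12 called (1 at an unadjusted p under 0.05, median -0.06), with GIGANTEA, Gh_D02G0690, at 18.2 to 34.7 FPKM in H and 26.7 to 39.1 in M. Among genes called outside the clock lists, some also lay far from the inbreds in both hybrids. Cold regulated gene 27, a repressor that acts near the clock in Arabidopsis, was higher in M in both copies: Gh_D06G0147 was at 1.59, 1.05 and 1.23 FPKM in H and 3.64, 4.67 and 3.82 in M (-1.14 ± 0.14, adjusted p = 0.000186), and Gh_A06G1853 differed by -1.05 (adjusted p = 0.00232), which was -0.89 without H library 2 and -0.97 without M library 3. The inbreds had means of at most 0.232 FPKM for either copy. BTB and TAZ domain protein 2, Gh_D12G1857, a regulator of auxin and sugar responses in Arabidopsis, read 1.64, 2.67 and 3.78 FPKM in H and 6.11, 9.97 and 11.8 in M (-1.48 ± 0.24, adjusted p = 0.00211), with inbred means of at most 0.606. Ferric reduction oxidase 7, which reduces iron at the chloroplast, was higher in H in both copies, by 1.28 for Gh_A10G1862 (adjusted p = 0.00693) and 1.13 for Gh_D10G2127 (adjusted p = 0.0022), and the inbred means were 18.3 to 27.2 FPKM against H libraries of 5.30 to 10.6. The A copy fell under the limit without M library 2 (0.97) and the D copy without H library 2 (0.99) or M library 2 (0.96).

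Genes of cell wall loosening that passed the test were mostly higher in M. Expansins and xyloglucan endotransglucosylases/hydrolases (XTH) loosen and rejoin wall polymers during growth. Of 90 tested members 5 were higher in M and 1 was higher in H, 6.67% of the list against 1.12% of all genes, with a list median of 0.01. XTH9 on chromosome D02, Gh_D02G1891, was at 13.2, 15.4 and 13.2 FPKM in H and 74.1, 104 and 50.7 in M (-2.31 ± 0.21, limma adjusted p = 4.87e-06). The gene with the same annotation on chromosome A03, Gh_A03G1432, read 7.83, 13.5 and 9.82 FPKM in H and 44.3, 74.0 and 28.7 in M (-2.06 ± 0.27, adjusted p = 0.000367). In both genes A, B and L had means of 37.1 to 58.1 FPKM, C 25.1 ± 2.13 and 23.0 ± 2.23, and D 12.6 ± 2.61 and 9.66 ± 2.75 (SD, n = 3), so that H lay near D. Expansin-like A2, Gh_A01G1439, was at 0.801, 1.41 and 1.43 FPKM in H and 8.15, 7.95 and 7.92 in M (-2.04 ± 0.30, adjusted p = 0.000764). Its D copy Gh_D01G1679 differed by -1.63 (adjusted p = 0.00274), with no H library above 1.01 FPKM and no M library below 3.16. A further XTH, Gh_A11G1910, read 2.63, 2.31 and 3.01 FPKM in H and 7.45, 10.2 and 7.95 in M (-1.38 ± 0.19, adjusted p = 0.000617). Expansin A4, Gh_D11G3302, was the member higher in H, at 7.19, 7.33 and 6.78 FPKM against 2.62, 5.02 and 1.96 (1.01 ± 0.19, adjusted p = 0.00611). It fell under the limit without H library 2 (0.99), M library 1 (0.94) or M library 3 (0.80), while the 5 members higher in M kept their call without any 1 library.

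Of other enzymes that act on the wall, chosen after their values were seen, 4 described here were higher in M, while glycosyl hydrolase 9C2 (Gh_Sca121931G01) and laccase 14 (Gh_A05G2113) were higher in H. Beta-xylosidase 1, Gh_D09G2276, which trims xylan, was at 3.92, 3.91 and 3.71 FPKM in H and 13.4, 7.39 and 15.8 in M (-1.39 ± 0.23, adjusted p = 0.00235). Beta-galactosidase 12, Gh_A07G0102, read 3.98, 2.85 and 3.47 FPKM in H and 9.55, 7.30 and 12 in M (-1.24 ± 0.17, adjusted p = 0.000531). Galacturonosyltransferase-like 7, Gh_D12G1288, of a family linked to pectin and xylan synthesis, read 6.01, 8.66 and 7.67 FPKM in H and 19.2, 20.1 and 19.8 in M (-1.31 ± 0.12, adjusted p = 7.38e-06). SKU5 similar 5, Gh_D01G1673, a wall protein of the multicopper oxidase family, differed by -1.37 (adjusted p = 0.00237), at 10.4 to 14.3 FPKM in H and 26.3 to 47.4 in M. None of these 4 had overlapping libraries, and all kept the call without any 1 library. The lists of cellulose synthases (56 tested, median 0.06) and pectin enzymes (119 tested, median 0.01) had 0 called, with cellulose synthase A2, Gh_D05G2313, at 46.6 to 57.2 FPKM in H and 54.0 to 65.1 in M. The highest pectin gene, the invertase/pectin methylesterase inhibitor Gh_A03G0503, was at 156 to 160.0 FPKM in H and 98.3 to 114 in M, a difference of 0.56 (adjusted p = 0.045) that is under the 2-fold limit.

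Aquaporins, channels that carry water across membranes, had the highest share of calls of any list, 6 of 67 (8.96% against 1.12% of all genes). Of these 4 were higher in H and 2 higher in M, with a list median of 0.17. The direction went with the member. PIP2;4, Gh_D03G1822, was at 12.7, 17.1 and 13.3 FPKM in H and 5.14, 3.89 and 6.77 in M (1.31 ± 0.19, limma adjusted p = 0.000836). PIP1;4, Gh_D06G2371, read 37.1, 29.6 and 28.2 FPKM in H and 14.3, 12.3 and 15.4 in M (1.12 ± 0.17, adjusted p = 0.00088). Copies annotated as PIP2 were higher in H by 1.07 for Gh_A09G1405 (adjusted p = 0.00421) and 1.05 for Gh_D04G1090 (adjusted p = 0.00366). The most abundant of the called members went the other way. PIP3, Gh_D01G0018, was at 115, 133 and 117 FPKM in H and 273, 339 and 208 in M (-1.14 ± 0.14, adjusted p = 0.000171), and PIP2;8, Gh_A01G0019, differed by -1.15 ± 0.14 (adjusted p = 0.000147), at 83.5 to 95.2 FPKM in H and 154 to 234 in M. No library of H overlapped one of M in any of the 6. Without M library 2, Gh_A09G1405 (0.99), Gh_D04G1090 (0.85) and Gh_D01G0018 (-0.97) fell under the limit, and Gh_D04G1090 did so too without H library 2 (0.96) or M library 1 (0.98). The levels of the PIP2 copies in the inbreds were higher than in either hybrid, at 27.2 to 84.1 FPKM on average.

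Genes of copper and redox balance, a group chosen after values were seen, did not all go 1 way. Copper chaperone for SOD1 delivers copper to copper/zinc superoxide dismutase, and iron superoxide dismutases do the same work, removal of superoxide, with another metal. The chaperone Gh_A08G1589 was at 8.22, 14.6 and 9.92 FPKM in H and 3.13, 4.54 and 3.14 in M (1.35 ± 0.20, limma adjusted p = 0.00107). Its D copy, Gh_D08G1899, read 5.12, 9.18 and 5.18 FPKM in H and 1.55, 2.26 and 1.59 in M (1.39 ± 0.25, adjusted p = 0.00377). Fe superoxide dismutase 2, Gh_D07G0457, was at 66.0, 57.7 and 75.2 FPKM in H and 191, 143 and 231 in M, higher in M at -1.47 ± 0.26 (adjusted p = 0.0041). No libraries overlapped in these 3 genes. The A copy of the dismutase, Gh_A07G0392, differed by -0.50 (adjusted p = 0.0161), which is under the limit. Copper/zinc dismutases were not called, and among the most expressed, Gh_A11G2096 was at 14.3 to 15.4 FPKM in H and 12.7 to 13.7 in M. Of 73 tested genes with copper or superoxide dismutase in the description, 2 were higher in H and 1 in M (median 0.04), so that the calls were these 3 genes alone. The share called over all genes tested was 1.12%.

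Metal transport and laccase genes completed that group. ZRT/IRT-like protein 2, Gh_A05G0795, of a family of zinc and iron transporters, was at 0.517, 0.0331 and 0.143 FPKM in H and 5.50, 3.90 and 1.24 in M (-1.77 ± 0.34, limma adjusted p = 0.00657). Homolog of anti-oxidant 1, Gh_A05G3446, a copper chaperone, read 21.3, 10.9 and 13.3 FPKM in H and 33.0, 20.0 and 51.7 in M (-1.10, adjusted p = 0.0385). The libraries of this second gene overlapped, and its call was lost without H library 2 or 3 or M library 1 or 3 (0.112 to 0.144). The copper-exporting ATPase Gh_D12G0446 differed by -0.53 (adjusted p = 0.0314). Laccase 14, Gh_A05G2113, a copper enzyme that joins lignin units, was higher in H by 1.37 ± 0.26 (adjusted p = 0.00634), at 1.37, 3.58 and 2.64 FPKM against 0.148, 0.496 and 0.339. Laccases Gh_A03G0417 and Gh_D03G1128 differed by 0.93 (adjusted p = 0.00875) and 0.87 (adjusted p = 0.011). Catalase 2, which removes hydrogen peroxide, was higher in H in both copies, by 1.18 ± 0.22 for Gh_A01G0845 (adjusted p = 0.00493), at 29.9, 38.8 and 40.8 FPKM against 12.3, 19.9 and 14.8, and by 1.01 for Gh_D01G0873 (adjusted p = 0.033). The D copy was lost without H library 2 or 3 or M library 1 or 3 (0.0807 to 0.139).

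In the flavonoid and the lignin and phenylpropanoid lists the 4 called members were higher in H, while O-methyltransferase 1 (Gh_D12G2369) and the peroxidase Gh_A07G1997, which these lists do not hold, were higher in M. The pathway turns phenylalanine into lignin, flavonoids and anthocyanins. Cinnamate-4-hydroxylase, Gh_A13G2057, an early step, was at 8.80, 11.1 and 8.4 FPKM in H and 4.76, 4.71 and 3.08 in M (1.02 ± 0.15, limma adjusted p = 0.00101). Chalcone synthase family gene Gh_D10G1431;Gh_D10G1429, the entry to flavonoids, read 38.9, 45.9 and 42.6 FPKM in H and 17.1, 20.0 and 19.1 in M (1.14 ± 0.29, adjusted p = 0.0352). Dihydroflavonol 4-reductase, Gh_D05G1836, a later anthocyanin step, read 25.3, 31.5 and 29.4 FPKM in H and 12.2, 17.7 and 9.88 in M (1.09 ± 0.26, adjusted p = 0.027). In all 3 the H libraries were above all M libraries. The hydroxylase fell under the limit without H library 2 (0.91) or M library 3 (0.86), the synthase lost its call without any 1 of the 6 libraries (0.0536 to 0.122), and the reductase without H library 2 or 3 or M library 1 or 3 (0.0855 to 0.0958). In the flavonoid list 2 of 34 members (5.88%) were called and 31 (91.2%) were positive (median 0.29), and in the lignin and phenylpropanoid list 2 of 74 (2.70%) were called and 53 (71.6%) were positive (median 0.29). Over all genes tested 1.12% were called and 61.7% were positive. A and B were the inbreds with the most dihydroflavonol reductase (33.6 ± 8.31 and 21.5 ± 2.24 FPKM), and C had 7.94 ± 1.40.

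Defence genes were called in both directions. The disease resistance gene of the TIR class Gh_D05G1546 was at 9.81, 10.9 and 10.2 FPKM in H and 29.0, 29.0 and 25.9 in M (-1.36 ± 0.13, limma adjusted p = 9.16e-06), and its A copy Gh_A05G1378 differed by -1.23 (adjusted p = 5.13e-05). The TIR-NBS-LRR gene Gh_Sca020269G01 went the other way, at 5.43, 4.47 and 6.77 FPKM in H and 1.73, 1.73 and 1.78 in M (1.24 ± 0.17, adjusted p = 0.000397). These receptors detect pathogen molecules inside the cell, and they were the 3 called of 173 defence genes (1.73% against 1.12% of all genes, median 0.09). The share of all genes includes loci without a gene name (1.88%), while it was 0.632% for A and 0.782% for D subgenome genes. Calmodulin-binding receptor-like cytoplasmic kinase 1, a calcium-linked kinase, was higher in M in both copies: Gh_A07G0932 was at 3.77, 3.75 and 3.21 FPKM in H and 11.8, 11.1 and 12.6 in M (-1.49 ± 0.11, adjusted p = 4.41e-07), and Gh_D07G1010 differed by -1.15 (adjusted p = 0.000153). JAZ3, Gh_A01G1225, a repressor of jasmonate signalling, was higher in H by 1.08 (adjusted p = 0.0192), lost without H library 1 (0.83, adjusted p = 0.0865) or M library 1 (adjusted p = 0.0649). WRKY 18, Gh_A07G0261, was higher in H by 1.30 (adjusted p = 0.0444), lost without any 1 library (0.0678 to 0.117). The called P450 genes Gh_D05G3235 (1.04, adjusted p = 0.000217) and Gh_D07G1197 (1.06, adjusted p = 0.0447) were higher in H, the first at 0.95 without H library 1 and the second lost without all but M library 2 (0.0875 to 0.157). A peroxidase, Gh_A07G1997, was higher in M (-1.0 ± 0.13, adjusted p = 0.000325), just past the limit, and fell to between -0.91 and -0.97 without H library 1 or 3 or M library 1 or 2.

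Hormone, sugar and lipid genes gave single calls. A gibberellin-regulated gene, Gh_A09G2394, was at 4.5, 2.25 and 2.51 FPKM in H and 13.7, 10.1 and 7.04 in M (-1.46 ± 0.28, limma adjusted p = 0.00598). Histidine-containing phosphotransfer factor Gh_D11G2680, a carrier of the cytokinin signal, read 2.56, 4.72 and 5.78 FPKM in H and 10.8, 9.54 and 12.6 in M (-1.21 ± 0.21, adjusted p = 0.00325), and was at -0.94 without H library 1. NCED4, Gh_D12G2009, a carotenoid-cleaving enzyme of the family that starts abscisic acid synthesis, was at 21.1, 1.25 and 1.35 FPKM in H and 19.9, 13.3 and 27.1 in M (-2.06, adjusted p = 0.0475). H library 1 lay within the range of M for it, and the call was lost without H library 2 or 3 or M library 1 or 3 (0.122 to 0.199). The MtN3 family gene Gh_A02G0694, of the SWEET sugar transporters, was higher in H, at 8.11, 5.79 and 5.71 FPKM against 1.17, 1.86 and 1.25 (1.63 ± 0.17, adjusted p = 3.17e-05). The glucose-6-phosphate/phosphate translocator Gh_A06G1287 was higher in H by 1.34 (adjusted p = 0.00157). Galactinol synthase 2, Gh_D13G1898, the first step of raffinose sugars, was higher in M, at 1.69, 1.91 and 0.813 FPKM in H and 11.3, 5.76 and 9.11 in M (-1.96 ± 0.38, adjusted p = 0.00709). Sugar genes just past the limit in M were trehalose-phosphatase/synthase 9, Gh_D02G1670 (-1.09, adjusted p = 0.00635), sugar transporter 1, Gh_D05G1581 (-1.04, adjusted p = 0.000637) and hexokinase-like 1, Gh_A13G1881 (-1.01, adjusted p = 0.00309). Without H library 3 they fell to -0.87, -0.95 and -0.90, the transporter also without M library 1 or 2 (-0.99 in both), and the hexokinase without M library 1 (just short of the limit, adjusted p = 0.0166) or 2 (-0.87).

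Fatty acyl-ACP thioesterase B, which releases mainly saturated fatty acids, had both copies higher in M: Gh_A13G1750 was at 5.32, 6.61 and 5.68 FPKM in H and 14.2, 14.2 and 12.7 in M (-1.10 ± 0.12, limma adjusted p = 4.99e-05), and Gh_D13G2098 differed by -1.04 (adjusted p = 2.66e-05), at -0.99 without H library 1 and just short of the limit without M library 1 (adjusted p = 0.000327). The Sec14p-like phosphatidylinositol transfer gene Gh_A13G0998 read 19.5, 28.3 and 26.7 FPKM in H and 70.5, 62.1 and 78.5 in M (-1.48 ± 0.16, adjusted p = 3.25e-05). Phosphate starvation-induced gene 3, Gh_A03G0512, was at 1.43, 1.39 and 1.48 FPKM in H and 4.25, 3.97 and 4.49 in M (-1.11 ± 0.11, adjusted p = 2.06e-05). Growth-regulating factor 4, Gh_A09G1285, a transcription factor of leaf growth, was higher in M, at 1.62 to 5.43 FPKM against 0.430 to 1.16 (-1.05, adjusted p = 0.0463), and lost its call without any H library or without M library 1 (0.0509 to 0.204). The phosphatidylethanolamine-binding gene Gh_D05G1586, of the family of the flowering signal FT, differed by -1.22 (adjusted p = 0.0227), lost without H library 2 or 3 or M library 1 or 3 (0.0617 to 0.0838).

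Homoeologous copies with the same description that were both called moved together. There were 16 such pairs on chromosomes of the same number, 6 higher in H and 10 higher in M, and the direction was the same in all 16. Maternal effect embryo arrest 59 was one of them: Gh_D03G1135 was at 40.6, 21.2 and 29.6 FPKM in H and 52.1, 80.2 and 63.5 in M (-1.10, limma adjusted p = 0.00772), and Gh_A03G0405 differed by -1.04 (adjusted p = 0.0303). The inbreds were at 2.23 FPKM or less for both copies. The D copy fell to -0.87 without H library 2 and -0.94 without M library 2, and the A copy was lost without H library 2 or 3 or M library 2 or 3 (0.0549 to 0.123). Copies that share reads are not independent of each other. By subgenome, 111 of 17556 A genes (0.632%) and 141 of 18033 D genes (0.782%) were called, against 346 of 18377 loci without a gene name (1.88%).

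**Figure D3:**
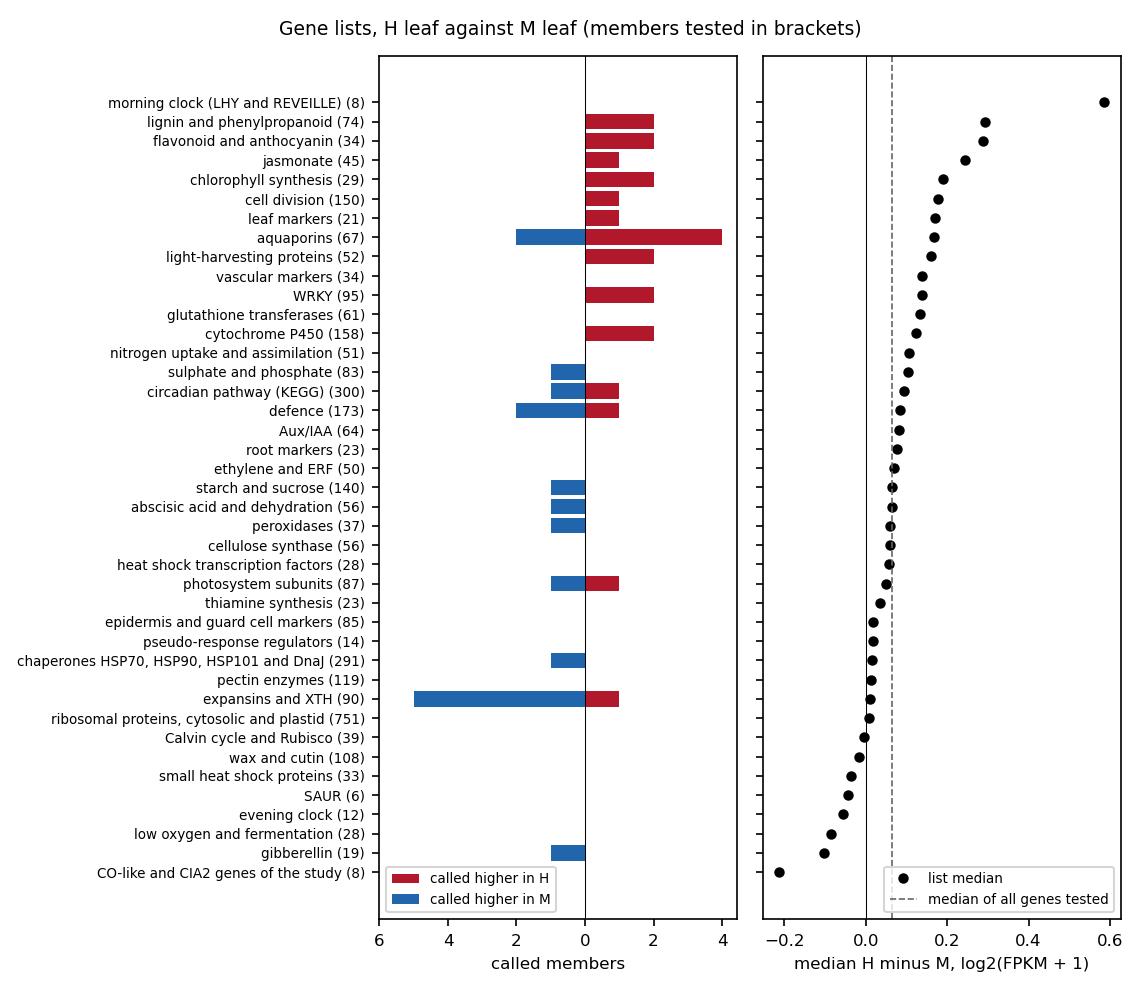
For each of 41 gene lists the left panel shows the number of members called higher in M (blue, to the left) and higher in H (red, to the right), and the right panel the median of H minus M on log2(FPKM + 1) over its tested members. Aquaporins (4 and 2 of 67) and expansins with XTH (1 and 5 of 90) have the most calls, and the morning clock list has the highest median (0.59) with no call.

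In the remaining lists at most 2 members were called, so any share called rests on 1 or 2 genes. Shares above the 1.12% of all genes tested were 5.26% for gibberellin, 4.76% for leaf markers and 2.70% for peroxidases. They were 2.22% for jasmonate, 2.11% for WRKY, 1.79% for abscisic acid and 1.27% for P450 genes. The sulphate and phosphate list also lay above 1.12%. Shares were lower for starch and sucrose (0.714%), cell division and the KEGG circadian pathway (0.667% each) and chaperones (0.344%). Cell division genes had 1 of 150 called (the histone gene above, median 0.18), WRKY genes 2 of 95 (median 0.14), P450 genes 2 of 158 (median 0.12) and leaf markers 1 of 21 (median 0.17). One member was higher in M in the lists of gibberellin (19 tested, median -0.10), peroxidases (37, median 0.06), starch and sucrose (140, median 0.07), abscisic acid and dehydration (56, median 0.07), sulphate and phosphate (83, median 0.10) and chaperones (291, median 0.02). Jasmonate genes had 1 of 45 higher in H (median 0.24), and the KEGG circadian pathway, which also holds chalcone synthases, 1 and 1 of 300 (median 0.09). No member was called among Aux/IAA (64, median 0.08), SAUR (6, median -0.04), ethylene and ERF (50, median 0.07), glutathione transferases (61, median 0.13), nitrogen (51, median 0.11), thiamine (23, median 0.04), small heat shock proteins (33, median -0.03), heat shock factors (28, median 0.06), wax and cutin (108, median -0.02), low oxygen (28, median -0.08) and root (23, median 0.08), vascular (34, median 0.14) and epidermis markers (85, median 0.02). Vascular markers summed to 339 to 466 FPKM in H and 261 to 368 in M, and cell division genes to 676 to 819 in H and 533 to 946 in M. For cell division M library 2 alone was at 946, while M libraries 1 and 3 were at 533 and 538, below every H library. In lists with 0 members called by limma, members at an unadjusted p under 0.05, whatever their size, numbered 32 for pectin enzymes, 27 for wax and cutin, 22 for Aux/IAA, 20 for cellulose synthases, 15 for glutathione transferases, 14 for epidermis markers, 12 each for the Calvin cycle and for ethylene, 8 for nitrogen, 4 each for thiamine, heat shock factors and low oxygen, 3 each for root and vascular markers, 1 for small heat shock proteins and 0 for SAUR. Without M library 1, 0 members of the flavonoid, chlorophyll, WRKY, jasmonate, circadian, abscisic acid, peroxidase, cell division and leaf marker lists were called, light-harvesting proteins and P450 genes had 1 each, photosystem subunits 1 higher in H and 0 higher in M, aquaporins 3 and 2, and small heat shock proteins 1 higher in H. After quantile normalization, expansins with XTH had 0 higher in H and 5 higher in M, and P450 genes 1 and 2. Light-harvesting proteins, chlorophyll synthesis, WRKY and phenylpropanoid genes then had 1 member each called higher in H and leaf markers 0, the KEGG circadian pathway had 1 higher in H and 3 higher in M, and wax and cutin 1 higher in M. Medians within 0.1 of 0 changed sign in 12 lists under that scaling, the Calvin cycle list to 0.13 and expansins with XTH to -0.06.

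Among abundant genes of lists with no call, libraries of H and M overlapped in 3 of the 5 given here. Glutamine synthetase 2, Gh_D02G0311, which assimilates ammonium in leaves, was at 489 to 544 FPKM in H and 511 to 613 in M. Thiazole biosynthetic enzyme, Gh_D06G1594;Gh_D06G1593, of thiamine synthesis, was at 112 to 124 in H and 125 to 159.6 in M (-0.24, limma adjusted p = 0.851), without overlap by a narrow margin. That gene had means of at most 19.3 FPKM in the inbreds. Lipid transfer protein 3, Gh_A10G1331;Gh_A10G1332, a surface lipid carrier, was at 624 to 697 FPKM in H and 666 to 714 in M. Ethylene-forming enzyme, Gh_A08G0460, was at 109 to 173 FPKM in H and 128 to 142 in M. Ribosomal protein large subunit 27, Gh_D09G0367, did not overlap either, at 183 to 199 FPKM in H and 211 to 215 in M, yet its difference was -0.18 (adjusted p = 0.127).

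The fathers were compared next, because by the crosses stated H and M differ in genotype by the father alone. No library of H or M enters the difference B minus C. The test of that difference does use these libraries, since the fit takes the spread of each gene from all leaf libraries. The calls of both comparisons are therefore not independent. Between B and C leaf 779 genes (1.42%) were called, 307 (0.56%) higher in B and 472 (0.861%) higher in C. Of the 342 genes higher in H, 46 (13.5%) were called higher in B than in C and 27 (7.89%) lower. Of the 272 genes higher in M, 43 (15.8%) were called lower in B than in C and 8 (2.94%) higher. Beside 0.56% higher in B and 0.861% higher in C over all genes tested, both directions were more frequent among these genes. The part of the shared spread in this was not tested. Read from the fathers, 15.0% of the 307 genes higher in B were higher in H, and 9.11% of the 472 genes higher in C were higher in M. For 490 of the 614 genes the fathers did not pass the test, which does not show that they were alike. Across the 54835 genes, H minus M and B minus C had a Pearson correlation of 0.05, given as a description since genes are not independent. Gh_D11G3404 (B minus C 3.85), Gh_D08G2116 (3.50), the pentatricopeptide repeat gene Gh_D11G3245;Gh_D11G3246 (2.90) and Gh_A10G1959 (2.58) were the named genes higher in H with B furthest above C, all with an adjusted p of at most 7.6e-07. NCED4, Gh_D12G2009, had B at 0.677 ± 0.0628 FPKM and C at 56.5 ± 3.10 (-5.10, limma adjusted p = 1.6e-05).

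**Figure D4:**
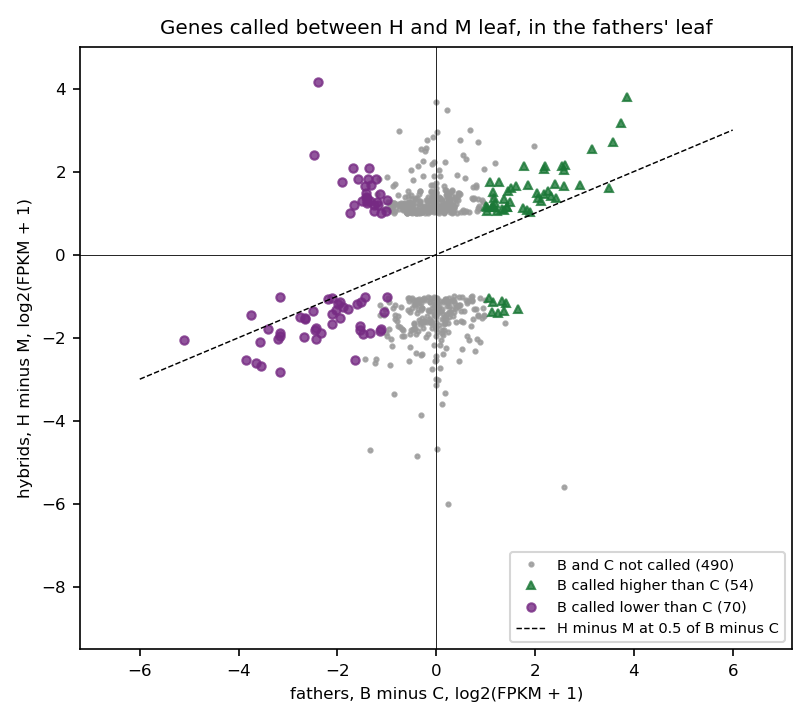
Each of the 614 genes called between H and M leaf is placed by the difference of the fathers, B minus C, on the x axis and of the hybrids, H minus M, on the y axis, both on log2(FPKM + 1). Green triangles (54) and purple circles (70) are genes also called between the fathers, and grey points (490) are not. The dashed line is the place of hybrids at the mean of their parents on log2(FPKM + 1), not in FPKM.

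If both hybrids lay at the mean of their parents on log2(FPKM + 1), H minus M would be 0.5 of B minus C, since the mother cancels. Against that line 850 genes (1.55%) were called, 560 (1.02%) further towards H and 290 (0.529%) further towards M. The mean of the parents in FPKM is not their mean on this scale. Where parents differ widely, genes at the mid-parent level in FPKM can therefore be among these calls, and their number was not tested. The 850 genes share the H and M libraries with the first comparison, so the values stand side by side only. Among annotated genes the furthest towards M were the L27e gene Gh_A08G0471, Gh_A13G1970 (-3.66, limma adjusted p = 1.2e-08), Gh_D01G1155, Gh_D02G2235 and Gh_A11G0653 (-2.79, adjusted p = 0.0037). Furthest towards H were the aspartyl protease gene Gh_A02G0805 (adjusted p = 0.035), Gh_A03G0591 (2.63, adjusted p = 0.001), Gh_Sca121931G01, Gh_D12G2086 (2.25, adjusted p = 6.6e-06) and the sulfotransferase gene Gh_D05G3615. Only some of these differed between H and M themselves. The oxidoreductase gene Gh_A03G0591 was at 280.0, 286 and 302 FPKM in H and 237, 264 and 234 in M (0.24, adjusted p = 0.797), with B at 10.9 ± 8.29 and C at 270.3 ± 37.0. The protease gene was at 36.5, 33.0 and 33.6 FPKM in H and 0, 34.4 and 12.1 in M, with B listed at 0, and the sulfotransferase gene was above 0 in H library 1 alone (4.54 FPKM). For XTH9, Gh_D02G1891, the difference beyond the fathers was -2.71 (adjusted p = 3.9e-06), and for the copper chaperone Gh_A08G1589 it was 1.22 (adjusted p = 0.0049). GATA factor 11, Gh_D08G2116, with the fathers 3.50 apart, lay at -0.14 (adjusted p = 0.68), and PIP1;4, Gh_D06G2371, at 0.24 (adjusted p = 0.52), both beside the dashed line.

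**Figure D5:**
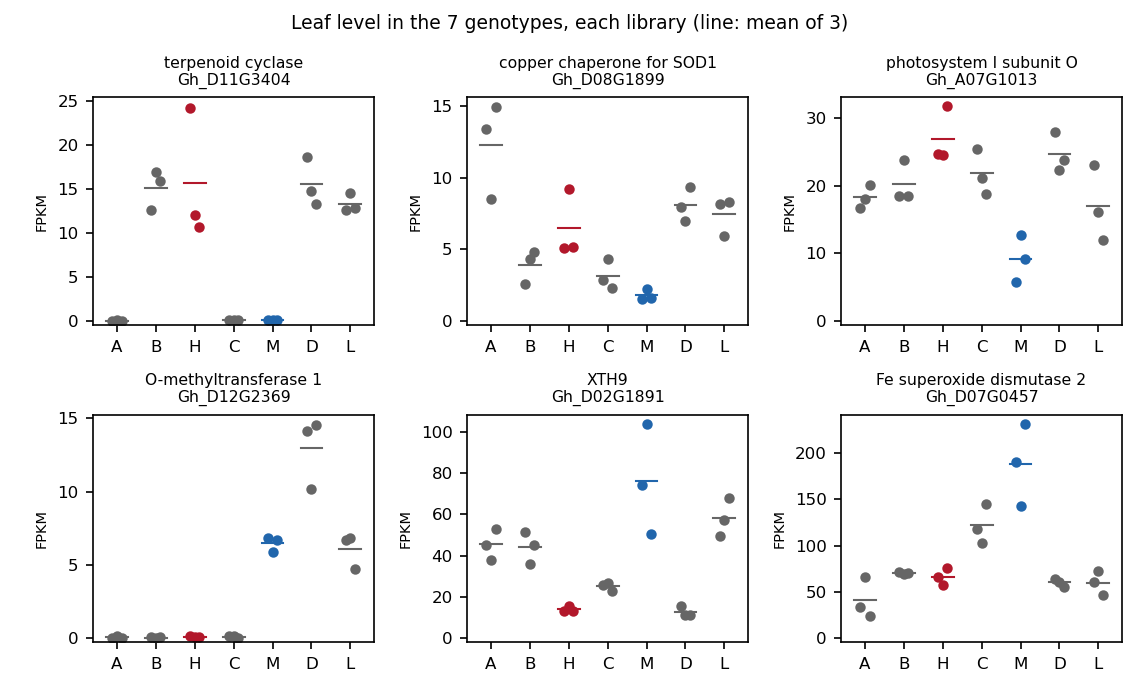
FPKM in each leaf library is shown for 6 genes in the 7 genotypes, each hybrid placed after its father (H red, M blue, other genotypes grey, line at the mean of 3 libraries). Gh_D11G3404 is near 0 in A, C and M, Gh_D12G2369 is present in M, D and L alone, and M has the lowest level of photosystem I subunit O and the highest of Fe superoxide dismutase 2.

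The low hybrid L, which has the same mother and DT-8 as father, was set beside H and M. For the copper chaperones L was near H, at 11.4 ± 0.982 FPKM for Gh_A08G1589 and 7.45 ± 1.32 for Gh_D08G1899 (SD, n = 3). For Fe superoxide dismutase 2, Gh_D07G0457, L was at 59.8 ± 12.5 FPKM, within the range of H. For XTH9, Gh_D02G1891, and expansin-like A2, Gh_A01G1439, L was near M, at 58.1 ± 9.24 and 12.7 ± 5.94 FPKM. Sigma factor E, Gh_D12G2691, lay between at 3.91 ± 1.24 FPKM, and so did ferric reduction oxidase 7, Gh_D10G2127, at 5.41 ± 0.554. PIP3, Gh_D01G0018, was at 244 ± 32.9 FPKM in L, within the range of M.

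In root, 207 of 59282 genes (0.349%) were called between H and M, 109 (0.184%) higher in H and 98 (0.165%) higher in M. Of the 342 genes higher in H leaf, 239 were tested in root, where 28 were called higher in H and 0 higher in M. Of the 272 genes higher in M leaf, 186 were tested in root, where 34 were called higher in M and 0 higher in H. Over the 45932 genes tested in both tissues 65 and 58 were called in root, and the differences in leaf and root had a Pearson correlation of 0.16 across genes. Gh_D12G2369, the O-methyltransferase, was at 0.4 ± 0.147 FPKM in H root and 13.1 ± 2.44 in M root (-3.32, limma adjusted p = 5e-05). The K+ channel gene Gh_A11G0947 was at 1.68 ± 0.603 FPKM in H root and 8.33 ± 0.460 in M root (-1.82, adjusted p = 0.003), the aquaporin Gh_D06G2371 at 39.9 ± 10.3 and 12.2 ± 1.28 (1.6, adjusted p = 0.00073) and Kin17, Gh_A10G1959, at 5.52 ± 3.67 and 0.267 ± 0.148 (2.23, adjusted p = 0.0017). These 4 genes kept in root the direction they had in leaf. The leaf difference was tested against the root difference in 1 fit over 42 libraries, and 139 of 45932 genes (0.303%) differed. The receptor-like kinase Gh_A07G0932 differed by -1.6 more in leaf (adjusted p = 2.9e-08), with 5.23 ± 0.683 FPKM in H root and 4.76 ± 0.295 in M root. The cyclase Gh_D09G0075 differed by 1.63 more in leaf (adjusted p = 0.00026), with 0.728 ± 0.350 FPKM in H root and 1.07 ± 0.238 in M root.

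Loci without a gene name made up 346 of the 614 calls, 223 higher in H and 123 higher in M. The largest, MSTRG.85355, was at 0.427, 0.252 and 0.292 FPKM in H and 87.6, 85.6 and 79.6 in M (-6.01 ± 0.14, limma adjusted p = 8.58e-14). It was at 83.4 ± 9.96 FPKM in L and at means of at most 0.877 in the 4 inbreds, so it was high in 2 hybrids and low in all parents. MSTRG.28632 read 19.5, 8.27 and 7.89 FPKM in H and 0.0779, 0.0626 and 0.0596 in M (3.48 ± 0.75, adjusted p = 0.0137), lost without H library 1 (3.09, adjusted p = 0.0599). MSTRG.80781 was at 9.41, 24.1 and 20.4 FPKM in H and listed at 0 in M (adjusted p = 0.00116). MSTRG.76801 was at 51.3, 31.5 and 65.0 FPKM in M and listed at 0 in H (adjusted p = 0.0279), and held only without M library 2 (otherwise 0.0625 to 0.0896).

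Genes listed at 0 in all libraries of 1 hybrid and high in the other were examined apart, 48 with a mean of at least 5 FPKM in M and 40 with that mean in H. The highest of them were mostly values of 1 library. Photosystem I subunit G, Gh_A04G0007, was at 657, 619 and 0 FPKM in M and 0 in H (limma adjusted p = 0.113), and germin-like protein 1, Gh_A09G0764, at 969 FPKM in M library 2 alone. Gh_A03G2171 was at 106, 0 and 91.0 FPKM in M (adjusted p = 0.121), Gh_D07G0293 at 254 in M library 2 alone and the ferredoxin-like gene Gh_D02G2127 at 234 in M library 3 alone. In H, the photosystem II gene Gh_D01G0163 was at 13.0, 161 and 0 FPKM, MSTRG.77805 at 305 and Gh_D13G0059 at 164 in H library 2 alone, photosystem II BY, Gh_D01G1575, at 104 in H library 3 alone, and chitinase A, Gh_A12G2714, at 75.5 in H library 2 alone. None of these 10 passed the test or had enough libraries above 1 FPKM to enter it.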

How the data were processed

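RNA of leaf and root of 7 genotypes, with 3 biological replicates, was sequenced on an Illumina instrument from both ends; adaptor and low-quality reads were removed, and the rest mapped to the TM-1 cotton genome and assembled. The submitters' processing notes name HISAT and StringTie, versions not given in the sources used here. Their table as deposited holds FPKM computed by the authors for 100881 genes, of which 48884 have a description and 35503 no gene name. It holds no counts and no depth, so no interval for counting error is given. Whether reads were counted by strand is not stated.

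Here log2(FPKM + 1) was used without further scaling, for genes at 1 FPKM or more in at least 3 of the 21 leaf libraries. limma 3.58.1 in R 4.3.3 fitted 1 mean per genotype to the 21 leaf libraries with a mean-variance trend. The contrasts were H minus M, B minus C and H minus M beyond 0.5 of B minus C, 2-sided, with Benjamini-Hochberg adjustment within each. Root was fitted likewise, and leaf minus root in a fit of 42 libraries. A gene was called past 1 in absolute log2 difference with an adjusted p under 0.05. Python 3.11.15 with pandas 2.3.3, numpy 2.4.6 and matplotlib 3.10.9 made tables and figures. On simulated data for H against M over 54835 genes, 94, 90, 98 and 100% of 50 genes each changed by 1.5, 2, 3 and 4 on the log2 scale were found, with 4 false calls. The changes were planted only in genes with a mean log2(FPKM + 1) above 3. Noise was drawn as normal, independent and of equal spread in every library for a gene. A shift between the hybrids and a library like M library 1 were not simulated. These shares are therefore no error rate of the calls above.

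Genes were named by rule: the 12 largest annotated calls in each direction without overlap of libraries; the largest call of each list in each direction, or its most abundant member; the clock genes of the study; the 5 highest genes at 0 in 1 hybrid in each direction; the 5 largest annotated calls beyond the fathers in each direction; and the 2 largest calls without a gene name in each direction. Further called members, second copies and the copper genes were chosen after their values were seen. 41 lists were made by words in the descriptions, by pathway or from names in the study; lists with fewer than 3 tested genes were only named. The comparison, its members and the lists were chosen with earlier results of these data known. Alternatives were other pseudocounts, filters and scalings, a replicate block and leaving out libraries. The replicates are biological, with root and leaf taken from the same plants, and p-values measure the spread between these libraries.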

Additional observations from a re-analysis of the deposited data

Results flagged for a closer look

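The difference between H and M was larger, smaller or opposite in leaf beside root for 139 of 45932 genes by a limma interaction test, and 18 of these are genes named in the report. The 2 tissues came from the same plants, so the libraries are not fully separate. Among genes higher in M leaf, the leaf minus root difference was -1.947 for XTH9 (Gh_D02G1891), -1.527 for its copy Gh_A03G1432, -1.549 for expansin-like A2 (Gh_A01G1439), -1.258 for galacturonosyltransferase-like 7 (Gh_D12G1288), -1.599 for the receptor-like kinase Gh_A07G0932 and -1.513 for the phosphotransfer factor Gh_D11G2680. It was -1.416 for phosphate starvation-induced gene 3 (Gh_A03G0512), -1.144 and -1.142 for the thioesterases Gh_A13G1750 and Gh_D13G2098, and -1.074 for the disease resistance gene Gh_D05G1546.

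Among genes higher in H leaf, it was 1.706 for tocopherol cyclase (Gh_D07G0223), 1.633 for the terpenoid cyclase Gh_D09G0075, 1.301 for PIP2;4 (Gh_D03G1822), 1.301 for GATA factor 11 (Gh_D08G2116), 1.295 for glutamyl-tRNA reductase (Gh_D05G3825), 1.077 for PIP2 (Gh_A09G1405), 1.033 for the P450 gene Gh_D05G3235 and 1.004 for ferric reduction oxidase 7 (Gh_D10G2127). The roots of H and M were alike by value for PIP2, at 336 ± 53.0 and 336 ± 51.5 FPKM (SD, n = 3).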

How the results depend on the processing

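The 614 calls between H and M leaf became 954 (630 higher in H, 324 higher in M) with a pseudocount of 0.1, 1516 (669 and 847) with unadjusted p, 262 (153 and 109) when the 6 libraries of H and M were fitted alone and 330 (161 and 169 of fewer genes tested) with a filter at 5 FPKM. Leaving out 1 library gave 416 to 1057. The 850 calls beyond the fathers became 1431 with the pseudocount of 0.1 and 1788 with unadjusted p, and 622 to 1216 with 1 library left out. The 779 calls between the fathers became 1285 with that pseudocount (643 to 851 with 1 library left out), and the 207 in root 809 with unadjusted p (176 to 209). Quantile normalization gave 593 (257 and 336), 716 (365 and 351) beyond the fathers and 756 between the fathers. Upper quartile scaling gave 548 (275 and 273), no filter 526, array weights 610 and no variance trend 596. Leaving out M libraries 1 and 2 together gave 518 (329 and 189); this setting, upper quartile scaling and the fit without a trend were chosen after seeing the data. Of 104 called genes named in the text, 43 were called with H and M fitted alone, 55 without M libraries 1 and 2, and 96 after quantile normalization; 0 changed direction in any setting run.

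A replicate block gave 577 calls (325 and 252), 802 beyond the fathers, 765 between the fathers and 207 in root. Same-numbered H and M leaf libraries did not deviate together (correlations -0.04, -0.02 and 0.005), so the numbers do not pair them. The lack of counts limits what can be said of genes near 0.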

Other observations

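Some genes were present in M leaf and in neither of its parents. With at least 2 FPKM in M and less than 0.5 in H, A and C there were 10 such genes, and by the same limits 2 in H, both listed at 0 in M, A and B, where a 0 can be a failed estimate. Of the 10, 1 was present in D and 2 in L. The UDP-glycosyltransferase Gh_D01G1155 had a mean of 7.13 FPKM in M and was listed at 0 in the leaf of the other 6 genotypes. Gh_D06G2309, annotated as CW7, had 2.86 FPKM in M and its neighbour in gene number, Gh_D06G2310, 3.0 FPKM, both with 0.201 or less in the other 6. Gh_D06G0237, with no description, had 7.24 FPKM in M and at most 0.0199 elsewhere. MSTRG.84801 had 6.41 FPKM in M and 5.86 in L, with at most 0.266 elsewhere, beside O-methyltransferase 1 (Gh_D12G2369) with 6.48 in M, 6.09 in L and 13.0 in D. In H, Gh_A05G0242 had 8.19 FPKM and C 1.26, with 0 in the other genotypes.

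Of the genes that the father of H or M alone expressed among the inbreds, 4 of the 17 B genes were present in M leaf and 4 of 16 in M root, although B is no parent of M. Of 29 genes that D alone expressed in leaf, 23 were present in L leaf, 2 in M and 0 in H. In root, 27 of 42 such genes of D were present in L, 5 in M and 2 in H, although D is a parent of neither M nor H.

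Calls per chromosome were few, and whether they were uneven was not tested. Over the A subgenome 0.632% of genes were called, over the D subgenome 0.782% and on unplaced scaffolds 1.84% (16 of 869). Among chromosomes D06 had the highest share, 11 genes higher in H and 8 higher in M of 1228 tested (1.55%), followed by A13 with 6 and 8 of 1309 (1.07%). A04 had the lowest share, 1 of 764 (0.131%). Of 2254 genes on A05, 4 were higher in H and 15 higher in M, and on D10 6 of 1316 were higher in H and 0 higher in M.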
